A study of Sinonovacula constricta with 18 samples.

Results

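The gill-restricted isoform clusters of the razor clam *Sinonovacula constricta* are 76 of 32250 clusters of full-length transcript reads. They were chosen by their FPKM, a read count scaled for the length of the transcript and the total of the library, in 18 libraries of adult tissue. A cluster was kept when its lowest gill library was at 1 FPKM or more and above all 15 libraries of the other tissues, and when its gill mean, with 0.1 added, was at least 4 times the highest mean of another tissue, with 0.1 added. This quotient is called the ratio here, and the members are called by their rank in it. Of the 32250 clusters, 19097 were at 1 FPKM or more in every gill library, 510 of these (1.58% of all clusters) had every gill library above every other library, and 76 of the 510 reached the ratio. A further 29 reached the level and the ratio, but their gill libraries overlapped with others.

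The study sampled the gill, the labial palp, the mantle, the siphon, the intestine and the foot of healthy adult clams to find where opsins, the receptor proteins that sense light, are expressed. Each tissue has 3 libraries, and each library was prepared from a pool of 3 animals. No treatment, strain or genotype separates the groups, and the foot is labelled foot muscle. The depth lay between 11343855 and 11796712 reads in the gill and between 9982441 and 17970120 over all libraries. The number 1, 2 or 3 of a library is its replicate number. Labels do not say which animals went into which pool, so the p-values measure the spread between these libraries. The main tests between tissues did not pair libraries by replicate number. A fit that did, with a replicate block, was run as an alternative.

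The gill of a bivalve is a sheet of filaments covered with ciliated cells, which drive water through the mantle cavity, take up oxygen and carry trapped particles in mucus toward the mouth. The labial palps, which lie beside the mouth, are also ciliated and sort these particles before they are swallowed. The siphon conducts water in and out of the burrowed animal, the mantle lines and secretes the shell, the intestine digests and absorbs, and the foot digs. The deposited files do not pair the clusters with gene names, so neither the role of a member nor the identity of the tissue could be checked against known markers. Because whole tissues were sequenced, a lower level cannot be told apart between fewer cells of a type and less RNA in each cell.

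The ratio of the members ran from 4.004 to 105 with a median of 6.23. It was at least 30 in 5 members, at least 10 in 20, between 5 and 10 in 33 and under 5 in 23. At the threshold, the last members of ranks 74, 75 and 76 had ratios of 4.22, 4.15 and 4.004, and the first clusters outside had 3.97, 3.95 and 3.94, so the edge of the set is a cut through a continuous range. The mean gill level ran from 1.57 to 547 FPKM with a median of 31.4, and the median member stood at percentile 80.5 of the 19097 clusters at 1 FPKM or more in every gill library. A gill mean of at least 100 FPKM was found in 8 members, a mean between 10 and 100 in 56 and a mean under 10 in 12. The signal was spread unevenly, since the top 5 held 39.1% and the top 10 held 53.4% of the members' summed gill FPKM.

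**Figure D1:**
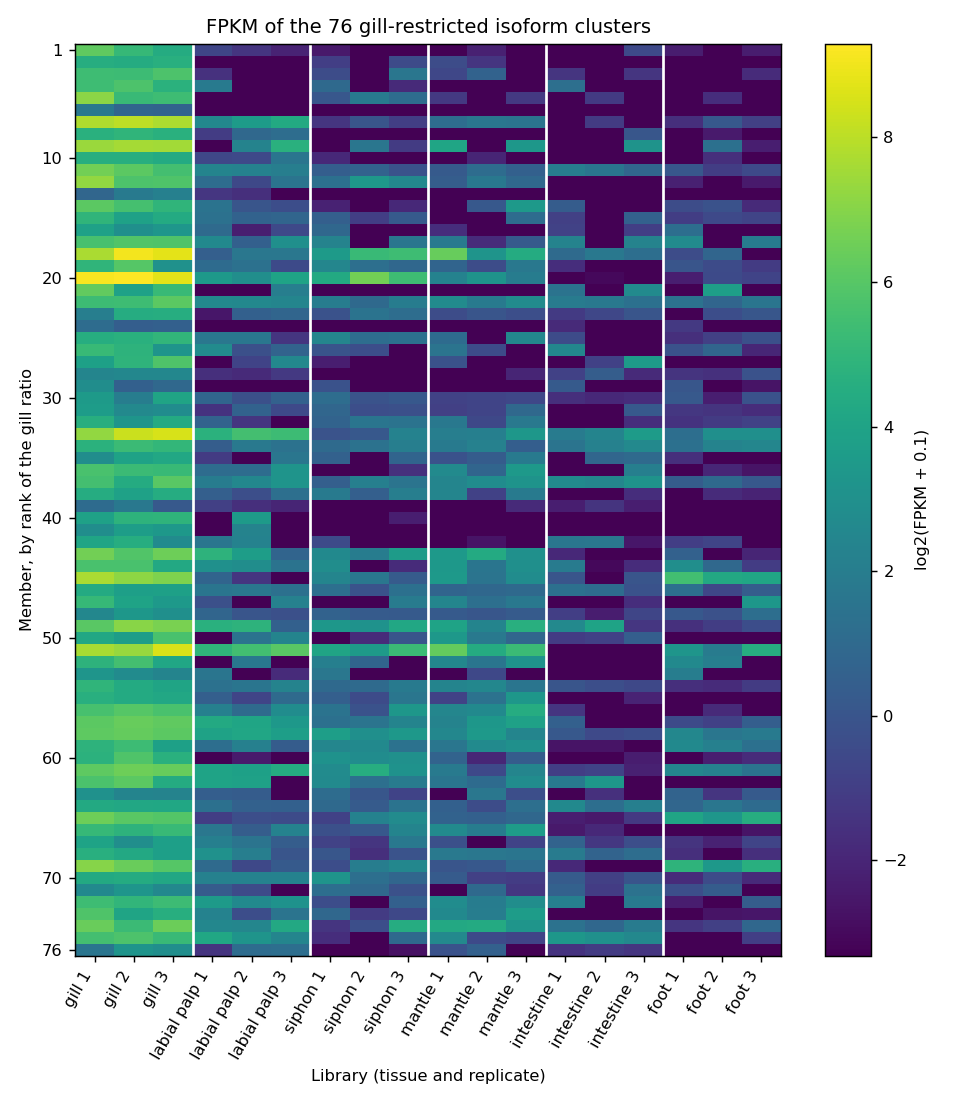
Level of the 76 gill-restricted isoform clusters, as log2(FPKM + 0.1), with the members in rows by rank of the ratio and the 18 libraries in columns by tissue and replicate. The 3 gill columns are the brightest in every row by the rule, and the dark cells elsewhere are libraries listed at 0, most often in intestine and foot.

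Summed over the 76 members, the FPKM was 4327, 4452 and 4239 in gill replicates 1, 2 and 3. In the labial palp the sum was 353, 352 and 374, which on average was 8.29% of the gill sum. In the mantle it was 397, 212 and 348, or 7.35% of the gill on average. These 2 tissues overlapped, so their order was not separated from the spread between libraries. The siphon had sums of 207, 279 and 321, or 6.21% of the gill. Foot libraries had 171, 112 and 150, or 3.33%, and intestine libraries had 99.7, 78.5 and 109, or 2.20%. The intestine libraries were thus all below the lowest foot library, whose sum was 112, and the foot libraries were all below those of palp, siphon and mantle. The members took between 0.619% and 0.659% of the reads of a gill library and between 0.00644% and 0.00887% of those of an intestine library. With each FPKM divided by the TMM factor of its library, a scaling that centres the bulk of clusters, the siphon mean was 10.7% of the gill mean and the foot mean 6.83%, while mantle, palp and intestine were at 9.57%, 8.004% and 2.33%. The siphon then stood above the palp on average, at 251, 385 and 437 against 248, 270.3 and 285, with overlapping libraries. Since the rule placed the gill first, these sums describe the members and test nothing about the gill.

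**Figure D2:**
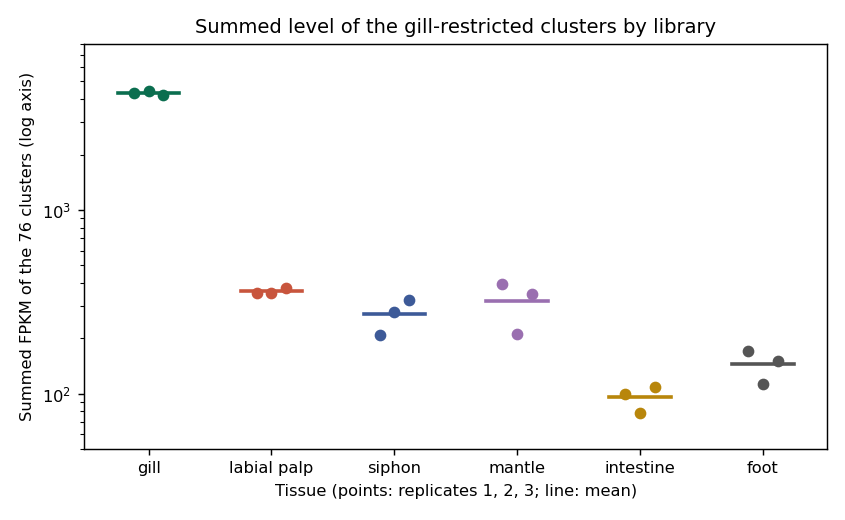
Summed FPKM of the 76 gill-restricted clusters in each library, on a log axis, with points for replicates 1, 2 and 3 and a line for the tissue mean. The gill libraries sit between 4239 and 4452, labial palp, siphon and mantle between 207 and 397, and foot and intestine between 78.5 and 171, on the FPKM scale as deposited.

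Restriction to the gill was graded rather than absolute. Among the 76 members, 52 were above 0 in at least 1 library of every other tissue, and 16 were above 0 in all 18 libraries. The other 24 were listed at 0 in all 3 libraries of at least 1 tissue: the labial palp for 5, the siphon for 8, the mantle for 9, the intestine for 11 and the foot for 12, some of them several. For the 19097 clusters at 1 FPKM or more in every gill library, the share at 0 in all 3 libraries of a tissue lay between 0.0733% in the labial palp and 0.717% in the intestine. The rule itself favours such clusters. In a single library, between 44 and 50 members were at 1 FPKM or more in the labial palp, between 39 and 47 in the mantle and between 34 and 43 in the siphon. The corresponding numbers were between 16 and 27 in the intestine and between 20 and 22 in the foot. Of the 19097 clusters, between 94.1% and 97.6% were at 1 FPKM or more in a palp library. The shares were 88.8% to 93.7% in mantle, 88.2% to 93.0% in siphon, 88.7% to 93.4% in intestine and 79.8% to 88.0% in foot.

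The member of highest ratio, i1_ICE_sample8a197f|c262077/1/1839 (rank 1), was at 73.3, 35.4 and 21.2 FPKM in gill replicates 1, 2 and 3. In the labial palp it was at 0.52, 0.28 and 0.14 FPKM, and its highest value outside the gill was 0.59 FPKM in intestine replicate 3. The lowest gill library was therefore 36.0 times the highest other library, the widest such margin among the 75 members for which it could be computed, while the gill libraries differed from each other by more than 3-fold.

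Ranks 2 and 3 are taken here as pieces of 1 parent, since their identifiers differ only in a number after a final point. The sources used here do not state what this number means. Rank 2 was at 22.8, 21.7 and 24.6 FPKM in the gill and at 0 in every labial palp, intestine and foot library. Against the foot this was at least 101-fold higher, with a floor of 3 reads over the 3 foot libraries, or at least 48.6-fold with the library totals scaled by TMM. Rank 3 was at 41.8, 39.8 and 53.9 FPKM in the gill, and its highest other library was siphon replicate 3 at 3.02 FPKM. In both pieces the gill libraries stayed close together.

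Rank 4 was at 41.7, 53.6 and 26.7 FPKM in the gill and at 0 in all mantle and foot libraries. It was also at 3.40 FPKM in labial palp replicate 1 and at 0 in the other palp libraries, so its second tissue rests on 1 library. Rank 5 was at 139, 37.7 and 41.5 FPKM in the gill and at 0 in every palp library. Outside the gill, rank 5 was highest in the siphon, at 0.98, 3.47 and 2.10 FPKM, with every siphon library above every mantle library. The gill level of rank 5 varied most among the first 10 members, with a coefficient of variation of 79.0%.

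Rank 6 was the sole member at 0 in all 15 other libraries. It was at 3.27, 1.64 and 1.53 FPKM in the gill, from 26.2 estimated reads in all. Pooled over the 15 other libraries with a floor of 3 reads, it was at least 49.3-fold higher in the gill, or at least 35.7-fold with the library totals scaled by TMM, and at least 7.78-fold higher than in the intestine alone. With the totals scaled by TMM, the lowest bound for a single tissue was 5.84-fold, for the foot. The absence of rank 6 elsewhere is thus known only to these limits, which cover counting error only.

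Among the abundant members near the top of the ranking, rank 7 was at 219.9, 263 and 214 FPKM in the gill and at 5.78, 11.9 and 20.2 FPKM in the labial palp. All palp libraries of rank 7 were above all mantle libraries, which were at 2.15, 2.97 and 2.76 FPKM, and its siphon, foot and intestine libraries were at 1 FPKM or less. Rank 9 was at 166, 192 and 189 FPKM in the gill but at 0, 4.96 and 26.02 FPKM in the palp and 16.9, 0 and 10.2 FPKM in the mantle. Outside the gill its libraries ranged from 0 to 26.02 FPKM within a tissue, so no second tissue stood apart. Ranks 8 and 10 were lower, with gill means of 27.2 ± 2.57 and 22.7 ± 1.45 FPKM (SD, n = 3), and both had their next highest mean in the labial palp, at 1.46 and 1.34 FPKM.

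The most abundant member, i4_ICE_sample8a197f|c492/1/4632 (rank 20), was at 567, 627 and 446 FPKM in the gill, 12.6% of the members' summed gill level. Its siphon libraries were at 20.1, 98.1 and 42.0 FPKM and its palp libraries at 11.3, 7.36 and 15.9 FPKM. In the intestine it was at 0, 0.02 and 0 FPKM. Every siphon library was above every palp library, and the intestine was at or near 0 throughout.

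Rank 18 was at 210.1, 532 and 439 FPKM in the gill and was the second most abundant member. Its mantle libraries were at 81.9, 9.12 and 21.4 FPKM and its siphon libraries at 11.7, 37.2 and 41.6 FPKM. These libraries overlapped, so which of the 2 came next was not separated from the spread. Rank 33 was at 151, 308 and 369 FPKM in the gill and at 26.3, 46.2 and 40.6 FPKM in the labial palp. Every palp library of rank 33 was above every other library outside the gill, the highest of which was 11.99 FPKM in intestine replicate 3.

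Rank 51 was the highest member in both labial palp and mantle. It was at 199, 164 and 384 FPKM in the gill, at 30.7, 44.1 and 66.2 FPKM in the palp and at 79.8, 21.9 and 38.5 FPKM in the mantle. In all 3 intestine libraries it was listed at 0. Its gill libraries were 2.06 times the highest other library at the least, and palp and mantle overlapped. Rank 45, the highest member in the foot, was at 207, 141 and 117 FPKM in the gill and at 44.1, 19.4 and 17.4 FPKM in the foot. All foot libraries of rank 45 were above the highest mantle library, at 11.1 FPKM. Rank 75 was the highest member in the intestine, with a mean of 7.91 FPKM there and 45.5 ± 8.47 FPKM in the gill (SD, n = 3), but its palp mean of 10.9 FPKM was higher still.

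**Figure D3:**
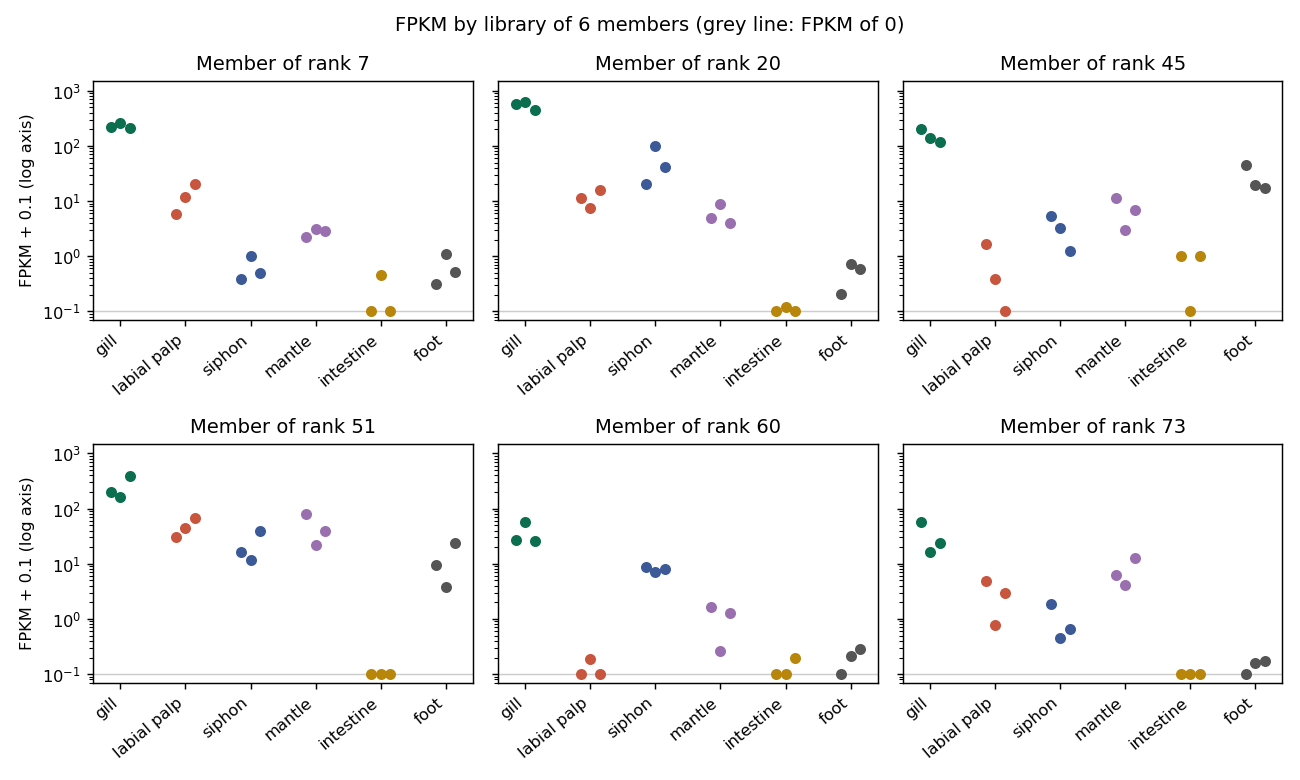
FPKM + 0.1 on a log axis in each of the 18 libraries for the members of ranks 7, 20, 45, 51, 60 and 73, with 3 points per tissue for replicates 1, 2 and 3 and a grey line at an FPKM of 0. Outside the gill the highest mean lies in labial palp for rank 7, siphon for ranks 20 and 60, foot for rank 45 and mantle for rank 73. Palp and mantle libraries overlap for ranks 51 and 73.

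By mean FPKM, the tissue next to the gill was the labial palp in 31 members, the mantle in 20, the siphon in 12, the foot in 7 and the intestine in 5, and rank 6 had none. Among the 4528 clusters at 1 FPKM or more in every gill library and highest in the gill, the palp came next in 54.4%, the intestine in 20.4%, the mantle in 14.2%, the siphon in 7.62% and the foot in 3.42%. The members thus had the palp and the intestine as next tissue in a smaller share (40.8% and 6.58%) than these clusters, a difference that was not tested. The scale bears on this count, since over 26222 clusters the median difference of gill minus siphon was 0.72 on the log2 scale of FPKM, gill minus foot 0.98 and gill minus mantle 0.42, against 0.09 for intestine and -0.05 for palp. Dividing each FPKM by the library's TMM factor (the trimmed mean of M values) brought all 5 medians to within 0.03 of 0. On that scale the siphon came next in 22 members, the palp in 20, the mantle in 17, the foot in 15 and the intestine in 1. No such count was made over other clusters on that scale, so whether this order is particular to the members is not known. The members' own median difference from the gill was 3.45 for palp, 3.98 for siphon, 4.11 for mantle, 5.17 for intestine and 5.53 for foot on the FPKM scale. After the TMM factor it was 3.48, 3.28, 3.73, 5.01 and 4.57, so the intestine took the place of the foot as the farthest tissue. After this scaling the gill libraries were still above all others in 68 of the 76 members, and the ratio was still at least 4 in 54.

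**Figure D4:**
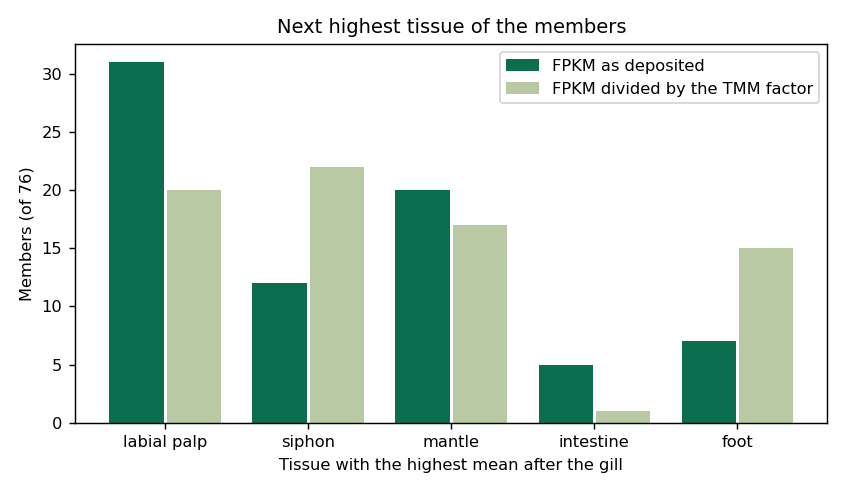
Number of members, of 76, whose highest mean after the gill lies in each tissue, for FPKM as deposited (dark bars) and FPKM divided by the TMM factor of the library (light bars). The labial palp leads with 31 on the first scale, and siphon (22) and palp (20) lead on the second. No count over other clusters was made on the second scale.

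Whether members differed among the 5 tissues other than the gill was tested with edgeR (quasi-likelihood test on the estimated counts, Benjamini-Hochberg adjustment over 29930 clusters, threshold 0.05). The rule set a ceiling for these tissues but did not use their order. Of the 76 members 31 were called (40.8%), against 23.9% of all clusters tested. The minimum of 10 reads counted gill reads too, and 4 of the 76 passed it through the gill alone, among them rank 6, which has no read elsewhere. With the minimum taken over the 15 other libraries, a setting chosen after the results were seen, 31 of 72 members were called (43.1%), against 24.1%. Leaving out each library in turn gave between 26 and 33 members. The fit scales libraries by TMM, so its differences follow that scale rather than FPKM.

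The clearest pattern was a low level in the intestine. Between mantle and intestine 24 members were higher in the mantle (8.37% of all clusters were) and 0 were lower (5.89%) in the edgeR test. At an unadjusted p under 0.05 this pair differed in 33 members (43.4%) in either direction, against 26.8% of all clusters. The siphon was higher than the intestine in 24 members (10.1% of all clusters) and lower in 1 (7.52%), while the palp was higher in 15 (3.52%) and lower in 0 (1.83%), with 26 members (34.2%) at an unadjusted p under 0.05 in either direction, against 14.3% of all clusters. Intestine and foot differed less one-sidedly, with 3 members higher in the intestine (8.40%) and 13 higher in the foot (10.3%). Without intestine replicate 2 the mantle was higher in 16, and without labial palp replicate 3 the palp was higher in 10. The 3 members higher in the intestine than in the foot became 0 without intestine replicate 1 or foot replicate 2, and 2 members were lower in the mantle than in the intestine without mantle replicate 3.

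Among palp, siphon and mantle few members were called. Palp and siphon differed in 11.8% of members, against 11.5% of all clusters. For palp and mantle the shares were 2.63% and 5.62%, and for siphon and mantle 2.63% and 5.21%. The palp was higher than the siphon in 4 members (5.67% of all clusters) and lower in 5 (5.84%), and higher than the mantle in 0 (2.99%) and lower in 2 (2.63%). The siphon was higher than the mantle in 2 (2.92%) and lower in 0 (2.30%). At an unadjusted p under 0.05, 23, 17 and 15 members differed in these 3 pairs (30.3%, 22.4% and 19.7%, against 22.8%, 19.5% and 17.1% of all clusters). Such small counts moved with single libraries: palp over siphon was 1 without labial palp replicate 2, siphon replicate 1 or siphon replicate 2, palp under mantle was 0 without labial palp replicate 3, mantle replicate 1 or mantle replicate 3, and siphon over mantle was 1 without siphon replicate 2 or 3 or mantle replicate 1 or 2. Palp under siphon was 3 without labial palp replicate 2 or 3 or siphon replicate 2 or 3. Against the foot, the palp was higher in 15 members (7.41%) and lower in 4 (7.08%), and the mantle was higher in 11 (4.40%) and lower in 2 (4.80%). The siphon was higher than the foot in 6 (0.722%) and lower in 1 (0.601%). Without any 1 of the 3 foot libraries, 9 members were higher in the palp than in the foot. The mantle was higher than the foot in 7 without mantle replicate 1 or foot replicate 3, and the siphon in 3 without siphon replicate 3, foot replicate 1 or foot replicate 3. Leaving out a mantle library raised the members lower in the mantle than in the foot to at most 4, without mantle replicate 3, and the 1 member lower in the siphon was lost in most such fits.

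For single members, the highest of these 5 tissues by mean FPKM was seldom separated from the one after it. The test of this pair passed the threshold in 1 of 76 members, rank 20, whose siphon level was above its palp level by 3.08 on the log2 scale (standard error 0.87, edgeR adjusted p = 0.033). Without siphon replicate 2 the adjusted p of rank 20 was 0.142 in edgeR, and 13 of the 18 fits with 1 library left out kept the call. In 12 members every library of the highest tissue was above every library of the next one. The pair was picked from the same values, which the p does not allow for. Neither count was made over all clusters, so whether this is particular to the members is not known.

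Each of these tissues was also set against the mean of the log levels of the other 4. This gave 16 members higher in the labial palp (6.91% of all clusters) and 3 lower (3.43%), 19 higher in the siphon (6.79%) and 1 lower (3.09%), and 13 higher in the mantle (4.75%) and 0 lower (1.90%). In the intestine 2 were higher (9.03%) and 22 lower (9.12%), and in the foot 7 were higher (8.25%) and 7 lower (4.86%). A tissue at 0 pulls the mean of the log levels down and makes the others appear higher. Rank 51, at 0 in the intestine, was called higher in palp, siphon, mantle and foot alike. The members called higher that also had their highest mean FPKM of the 5 tissues there numbered 13 for the palp, 9 for the mantle, 6 for the siphon, 4 for the foot and 2 for the intestine. No such count was made over all clusters. The 16 in the palp became 10, 8 and 7 without labial palp replicates 1, 2 and 3. The 19 in the siphon became 12 without siphon replicate 3, the 13 in the mantle became 8 without mantle replicate 1 or 2, and the 7 higher in the foot became 4 without foot replicate 3. Members lower in the foot became 3, 4 and 4 without foot replicates 1, 2 and 3. At an unadjusted p under 0.05, 28 members (36.8%) differed in the mantle contrast in either direction, against 21.0% of all clusters, and DESeq2 called 2 lower there (6.46% of all clusters) where edgeR called 0.

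Several members kept a call in a tissue named here in every alternative and with any library left out. Those outside ranks 1 to 10 and the abundant members were picked after their values were seen. In the labial palp, rank 7 was higher by 3.78 on the log2 scale (standard error 0.49, edgeR adjusted p = 0.00017). Rank 20 was higher in the siphon by 6.60 (standard error 0.58, edgeR adjusted p = 4.07e-06). Rank 45 was higher in the foot by 4.66 (standard error 0.62, edgeR adjusted p = 0.000138). These values, and those of ranks 60, 65, 69 and 73 below, are against the mean of the other 4 tissues. Against the next tissue alone, ranks 7, 45, 60, 65, 69 and 73 differed by 1.82, 2.60, 3.44, 2.24, 2.80 and 1.91, and none passed the threshold. Rank 20 was also called higher in palp and mantle, rank 73 in palp and rank 65 in siphon. With FPKM divided by the TMM factor, the ratios of ranks 45, 60, 65, 69 and 73 fell under 4. They were 2.83, 2.77, 2.15, 2.13 and 3.19, while ranks 7 and 20 were at 18.6 and 5.82. The gill libraries of each of these members still lay above all others on that scale.

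Rank 60 resembled rank 20 in having the siphon as second tissue. It was at 27.0, 57.2 and 25.3 FPKM in the gill and at 8.53, 6.91 and 7.88 FPKM in the siphon, where it was higher than the other 4 tissues by 6.42 on the log2 scale (standard error 0.69, edgeR adjusted p = 2.45e-05). No library of palp, mantle, intestine or foot was above 1.53 FPKM, so the siphon libraries stood apart from all of them.

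Rank 73 had the mantle as its second tissue, at 6.28, 3.94 and 12.4 FPKM against 56.1, 16.5 and 24.1 FPKM in the gill. Its mantle level was higher by 5.18 (standard error 0.60, edgeR adjusted p = 0.000453). Intestine libraries of rank 73 were all at 0, and palp and mantle overlapped, since palp replicate 1 was at 4.74 FPKM.

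Ranks 65 and 69 shared a second level in the foot with rank 45. Rank 65 was at 91.0, 66.8 and 59.9 FPKM in the gill and at 16.5, 9.82 and 23.1 FPKM in the foot, higher there by 4.92 (standard error 0.50, edgeR adjusted p = 1.28e-05). Rank 69 was at 128, 85.2 and 62.7 FPKM in the gill and at 29.1, 10.4 and 24.9 FPKM in the foot, higher there by 5.42 (standard error 0.59, edgeR adjusted p = 2.51e-05). For both, every foot library was above every library of palp, siphon, mantle and intestine, and both had their lowest foot value in replicate 2.

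Rank 58 was lowest in the intestine. It was at 71.5, 78.1 and 68.4 FPKM in the gill, at 1.02, 0.60 and 0.69 FPKM in the intestine and at no less than 2.98 FPKM in any other library. Its intestine level was lower than the mean of the other 4 tissues by 3.90 on the log2 scale (standard error 0.36, edgeR adjusted p = 4.74e-06).

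Likeness between members was described by the correlation of log2(FPKM + 0.1) over the 15 libraries other than gill, with no test. The median over 2775 pairs was 0.15, and 10 pairs reached 0.9. The 15 libraries include 3 of each tissue and are not independent points. Ranks 40 and 41, from different parents, were the most alike (0.99). Both were at 0 in 13 or more of the 15 libraries and above 0 in labial palp replicate 2, at 11.8 and 4.96 FPKM, so this likeness rests on 1 library. Ranks 12 and 20 (0.95) shared their order of siphon, then palp or mantle, with the intestine at or near 0, and ranks 65 and 69 (0.93) shared the foot.

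With identifiers read as pieces of a parent, the members came from 73 parents. Of these, 3 gave 2 members each: ranks 2 and 3, ranks 49 and 62, and ranks 56 and 66. Over the 15 libraries the correlation was 0.82 for ranks 2 and 3 and 0.96 for each of the other pairs. A parent shared with another cluster was found in 21.1% of members and in 21.3% of all clusters. Reads of such pieces could have been divided between them, and the rule did not take in every piece. For 10 members, 12 pieces of the same parent lay outside the rule, with ratios between 0.36 and 3.39. The piece beside rank 24 was at 50.4, 26 and 91.2 FPKM in the gill and had a palp mean of 53.5 FPKM against a gill mean of 55.9 FPKM. Rank 24 itself was at 2.08, 1.25 and 1.38 FPKM in the gill and at 0 in every palp, siphon and mantle library. The 2 pieces therefore differed in level and in restriction, at 28.6 gill reads in all for rank 24.

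Split identifiers, those with a number after a final point, were found in 57.9% of members, 42.7% of all clusters and 39.5% of clusters at 1 FPKM or more in every gill library. The length implied by count and FPKM, which could be computed for 62 members with enough reads, had a median of 1039 bases, against 1517 over all clusters and 1541 over clusters at that gill level. The 20 members with a ratio of at least 10 had a split identifier in 13 cases and a median implied length of 769 bases, and the other 56 had one in 31 cases and a median of 1118 bases. The implied length of rank 7 was 299 bases and that of rank 20 was 4356 bases. Short clusters draw fewer reads at the same FPKM and are listed at 0 more easily, and the part of this in the ranking was not tested. Members rested on a median of 872 gill reads, 73 had at least 10 reads in each gill library and 53 had at least 100.

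The gill libraries of the members lay within 2-fold of each other in 38 cases, between 2- and 4-fold apart in 32 and more than 4-fold apart in 6. The median coefficient of variation was 34.1%, against 29.8% for clusters at 1 FPKM or more in every gill library. Replicate 1 was the highest gill library in 32 members, replicate 2 in 27 and replicate 3 in 17. Over clusters at that gill level the shares were 37.0%, 33.5% and 29.6%. The lowest gill library was less than 1.5 times the highest other library in 13 members and at least 4 times in 21, with a median of 2.57.

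How far the restriction carried over to libraries that the choice had not used was described by applying the rule without each replicate number. Without the libraries numbered 1, 114 clusters met the rule in the other 12, and in the 6 libraries left out the gill was highest in 98 of them (86.0%), against 21.1% of all clusters with at least 1 FPKM in the gill libraries used. The ratio in the libraries left out was at least 4 in 54 of the 114, against 0.626% of those clusters. Without number 2, 130 clusters met the rule, the gill was highest in 91 (70%, against 20.2%) and the ratio was at least 4 in 50 (against 0.623%). Without number 3, 102 met it, the gill was highest in 85 (83.3%, against 24.0%) and the ratio was at least 4 in 46 (against 0.942%). The gill thus remained highest for most clusters, but the size of the ratio shrank. Its median went from 6.14 in the libraries used to 3.59 in those left out, from 5.54 to 2.60 and from 6.35 to 3.32 for numbers 1, 2 and 3.

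**Figure D5:**
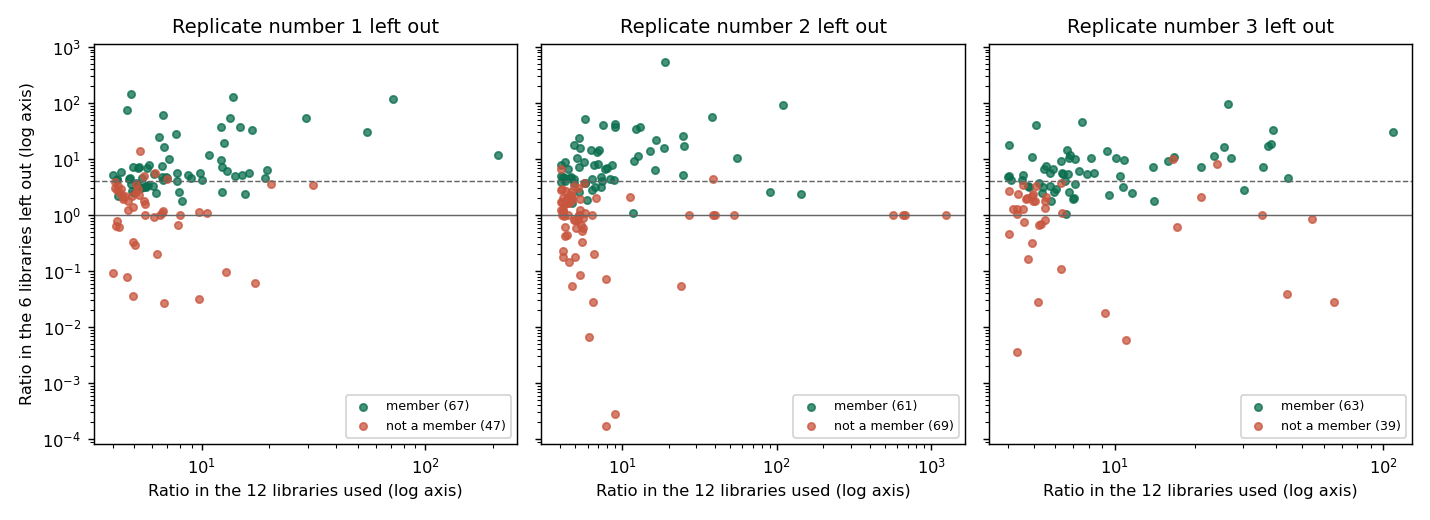
Ratio of gill to the highest other tissue for clusters that met the rule without 1 replicate number, in the 12 libraries used (x axis, log) and in the 6 left out (y axis, log), with members in green and other clusters in orange. The dashed line is a ratio of 4 and the solid line a ratio of 1. The gill was highest in the libraries left out for 98 of 114, 91 of 130 and 85 of 102 clusters.

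The gill libraries did not weigh equally in the set. Without gill replicate 2 the rule gave 148 clusters, without replicate 1 it gave 102 and without replicate 3 it gave 101. Of the 79 clusters that entered without replicate 2, 42 were under 1 FPKM in it and 30 were at 0 there, while the median of their mean in replicates 1 and 3 was 22.6 FPKM. Of the 35 that entered without replicate 1, 10 were at 0 in it, and of the 29 that entered without replicate 3, 5 were. A single gill pool could thus keep a cluster out of the set. Without the 3 mantle libraries, 114 clusters met the rule. The source of these differences between pools was not tested.

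Replicate number was tested among the 15 libraries other than gill with tissue in the model. In the edgeR test 0 of 72 members were called, against 4.33% of all clusters, and 10 were at an unadjusted p under 0.05, against 25.6% of all clusters. DESeq2 called 10 members (23.1% of all clusters) and limma called 3 (13.9%). Without the 3 mantle libraries, edgeR called 5 (21.1%). Leaving out single libraries gave between 0 and 4, with the highest count without mantle replicate 3. Few calls do not mean that the members ignored the number. Over the 76 members, deviations of log2(FPKM + 0.1) from the tissue mean correlated over 0.1 in 27 of 30 same-numbered pairs without mantle (median 0.31). Between different numbers, 3 of 60 such pairs did (median -0.17), and with a mantle library 1 of 15 same-numbered pairs did. Over 26222 clusters the link was closer, with 30 of 30 same-numbered pairs without mantle over 0.1 (median 0.69). Between different numbers the median over these clusters was -0.28. The difference between members and these clusters was not tested. These pairs include gill libraries.

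The same rule applied to the other tissues gave 67 clusters for the labial palp, 39 for the siphon, 99 for the mantle, 271 for the intestine and 42 for the foot. These sets were taken on FPKM as deposited and were not recounted after the TMM factor. On the deposited scale the median gill difference was 0.72 from siphon, 0.42 from mantle and 0.98 from foot (log2). What this adds to the sizes and ratios of the sets was not tested. The median ratio of 6.23 in the gill set was close to the 6.29 of the palp set and the 5.73 of the foot set, and below the 8.06, 8.002 and 7.69 of siphon, mantle and intestine. Its highest ratio, 105, was below the highest of foot (118), siphon (600.4), intestine (1361) and mantle (2519) and above that of the palp (53.6). In the median level in its own tissue, 31.4 FPKM, the gill set was the lowest of the 6. The edgeR test of gill against the mean of the other 5 tissues, which compares the same values that chose the members, called 68 of the 76 higher, against 4.88% of all clusters.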

How the data were processed

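The 18 RNA-seq libraries were grouped by the tissue in the sample labels. The authors deposited, for 32250 isoform clusters per library, an estimated read count and an FPKM value. The submitters' processing notes name RSEM, Bowtie2 and DESeq 1.10.1, while a build, an annotation and read filters were not given in the sources used here. As to the instrument, the protocol names a kit for Illumina libraries, whereas the series text speaks of a Pacific Biosciences instrument.

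The rule was applied to the deposited FPKM as it stands. The deposited estimated counts were rounded, and the 29930 clusters with at least 10 reads were tested with edgeR 4.0.16 in R 4.3.3 (quasi-likelihood, TMM, Benjamini-Hochberg adjustment, threshold 0.05). DESeq2 1.42.0, limma 3.58.1 on log2(FPKM + 0.1), RLE scaling, no filter, a replicate block and leaving out each library were alternatives. Scripts were tested on simulated data. Members, lists and tests were chosen with earlier results of these data known. Members named were ranks 1 to 10, the 5 highest in the gill, the highest in each other tissue and those at the threshold; others were chosen after their values were seen. Differences are log2 values, and a cluster at 0 in a tissue is given a fold only against 3 reads. The implied length is the count divided by FPKM and by the library total, for clusters with at least 100 reads. Fold bounds cover counting error only. Sequences of the clusters were not used here.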

Additional observations from a re-analysis of the deposited data

How the results depend on the processing

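The 76 members became 59 with a pseudocount of 1, 23 at a fold of 8, 273 at a fold of 2, 84 with medians, 45 on TMM-scaled CPM and 49 on FPKM divided by the TMM factor (chosen after seeing the data, as were the pairs of tissues, the rule without mantle and the read minimum outside the gill). With 1 library left out they were between 73 and 148. In the gill test between 55 and 68 members were called with 1 library left out, the fewest without gill replicate 1, while all clusters called went from 2050 to between 1082 and 2092, to 3989 with DESeq2 and to 3764 with limma. Among the 5 other tissues, 7154 clusters were called, between 6234 and 6943 with 1 library left out and 11750 with limma, and members were between 26 and 33. For replicate number the 1290 clusters became 6877 with DESeq2, 4149 with limma, 6212 without the mantle and between 177 and 3958 with 1 library left out. Members there were 10, 3, 5 and between 0 and 4.

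Against the mean of the other 4 tissues, DESeq2 called 5 members lower in the palp (8.11% of all clusters), 3 in siphon (6.16%), 2 in mantle (6.46%) and 15 in foot (8.92%). For limma 11 were higher (4.52%) and 2 lower (9.55%) in the siphon, and 3 higher (4.64%) and 22 lower (23.2%) in the foot. With 1 library left out, members higher and lower were between 7 and 15 and between 0 and 3 in the palp, 12 and 23 and 0 and 1 in the siphon, 8 and 13 and 0 and 1 in the mantle, 1 and 3 and 16 and 22 in the intestine, and 4 and 8 and 3 and 7 in the foot. Rank 40 in the palp, at 8.23 on the log2 scale, ran from -0.80 to 9.04 with 1 library left out and turned negative without labial palp replicate 2, its sole palp library above 0. The cause of the other changes was not tested.

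The labels do not say what libraries of the same replicate number share. Such libraries deviated together in 30 of 30 pairs without mantle but in 0 of 15 with it (correlation over 0.1, 26222 clusters). Of the 18 libraries, 16 were closest to their own number, a hint from the data and not the design. With the replicate block 34 members were called among the 5 tissues (31.5% of all clusters) and 72 in the gill test (9.88%), 2 were lower in the siphon (4.33%) and 1 was higher in the intestine (11.3%). The calls of ranks 12, 39, 40 and 60 in the palp, 62 in the foot, 27 in the intestine and 6 and 21 in the gill were not made in that fit. With 3 libraries per tissue, low counts outside the gill limit what can be told apart.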
